A study of Mus musculus with 8 samples.

Results

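The enzymes that make, break down and respond to cyclic AMP were followed in RNA sequencing of mouse kidney tubuloids, tubule-like structures grown in Matrigel. The set was every gene whose symbol was Adcy followed by a number (adenylyl cyclases), Pde followed by a number and a letter from a to d (phosphodiesterases), Prkar1a, Prkar1b, Prkar2a or Prkar2b (regulatory subunits of protein kinase A), or Prkaca or Prkacb (its catalytic subunits). It held 38 of the 24063 gene symbols in the files. The rule uses symbols alone and no measured value, though it was chosen with earlier results of these data known.

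The tubuloids came from kidneys of mice at postnatal day 7 to 10, as the sample descriptions give the age; the methods of the study give a younger range. Both groups carried the genotype Pkd2fl/fl Pax8rtTA TetOCre mTmG, that is, floxed alleles of Pkd2, a tetracycline transactivator driven by the Pax8 promoter, a Cre recombinase that it switches on, and a membrane reporter that turns from red to green after recombination. One group (DOX, n = 4 libraries, numbered 9, 12, 19 and 21) received doxycycline, which induces Cre, and the other (DMSO, n = 4, numbered 3, 5, 15 and 20) received the vehicle dimethyl sulfoxide. Treatment began on culture day 3 and lasted 3 days, and RNA was taken after 7 days of culture. The Pax8 promoter is active in tubule epithelium, so other cells in the culture keep both alleles, and the study describes cells still red, presumably not recombined, in treated structures. The labels do not say whether each library came from a separate animal, so the p-values measure the spread between these libraries.

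Cyclic AMP is made from ATP by adenylyl cyclases, most of which sit in the plasma membrane and are switched on by G protein-coupled receptors, such as the vasopressin V2 receptor of the collecting duct. It releases the catalytic subunits of protein kinase A from the regulatory subunits, and phosphodiesterases end the signal. Polycystin-2, the product of Pkd2, is a calcium-permeable channel, and some cyclases and phosphodiesterases are themselves stimulated or inhibited by calcium. Raised cyclic AMP is known to promote fluid secretion and proliferation in cystic kidney epithelium.

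The libraries held 63922677 to 102716313 counts, summed over transcripts. A pair of libraries stood apart: DMSO 20 had a count in 13243 genes and DOX 19 in 13599, against 17054 to 17903 in the other 6. Of 13260 genes that averaged at least 100 counts in those 6, 1285 (9.69%) had 0 counts in DMSO 20 and 1105 (8.33%) in DOX 19. Among the 31 members above that level, 6 had 0 counts in DMSO 20 (Adcy9, Pde1a, Pde1b, Pde1c, Pde4c and Pde9a) and 2 in DOX 19 (Pde1c and Pde4c). A count of 0 allows up to 3 counts, from counting error only. Results that rest on these libraries are given with and without them. Pkd2 itself stood at 6128, 4813, 6039 and 7538 normalised counts in DMSO libraries 3, 5, 15 and 20 and at 4136, 5072, 5952 and 4624 in DOX libraries 9, 12, 19 and 21. The groups overlapped, and the fold change of -0.31 (log2, 95% interval -0.73 to 0.11, DESeq2 adjusted p = 0.999) did not pass the test. These are RNA counts over the whole gene and do not measure the protein. By western blot, the study reports significantly less polycystin-2 after doxycycline, and less in sorted green cells than in red ones. Normalised counts below are always listed in this order of libraries, and are read counts summed over the transcripts of a gene and divided by a size factor of the library.

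None of the members was called between DOX and DMSO. Calling a gene required a change of 1.5-fold or more with an adjusted p no higher than 0.05. This was met by 0 of the 34 members with an adjusted p, beside 0.147% of all 17011 genes tested by DESeq2. The smallest adjusted p among the members was 0.874. By DESeq2, 1 member had an unadjusted p under 0.05, against 4.67% of all genes. The quasi-likelihood test of edgeR called 0 of 32 members tested, with 0 at an unadjusted p under 0.05, and limma-voom called 0. Over all 15562 genes that each of these tools tested, both also called 0, and 476 (edgeR) and 478 (limma-voom) had an unadjusted p under 0.05. The log2 fold changes of the 34 members were above 0 for 17 and below 0 for 17, with a median of -0.01 beside -0.07 over all genes. The DOX and DMSO values overlapped in all 35 members that averaged at least 2 counts, whereas 2.71% of all such genes did not overlap.

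These data bound the changes unevenly. The standard error of the log2 fold change ran from 0.22 for Prkar1a to 1.87 for Pde4c (median 0.59). The 95% interval stayed within a 2-fold change either way for 8 of the 34 members, namely Prkar1a, Prkar2a, Prkar2b, Prkaca, Prkacb, Pde3b, Pde6d and Pde10a, and reached a 4-fold change for 12. No cyclase was among these 8. With all 8 libraries, a 2-fold change in at least 1 direction thus lay within the interval of each cyclase. Without DMSO 20 and DOX 19 the median standard error was 0.49, over the 35 members with an adjusted p. The interval of Pde1a then ran from -0.84 to 0.10, against -2.80 to 2.40 with all libraries. Which members stayed within a 2-fold change in that fit is not listed here.

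**Figure D1:**
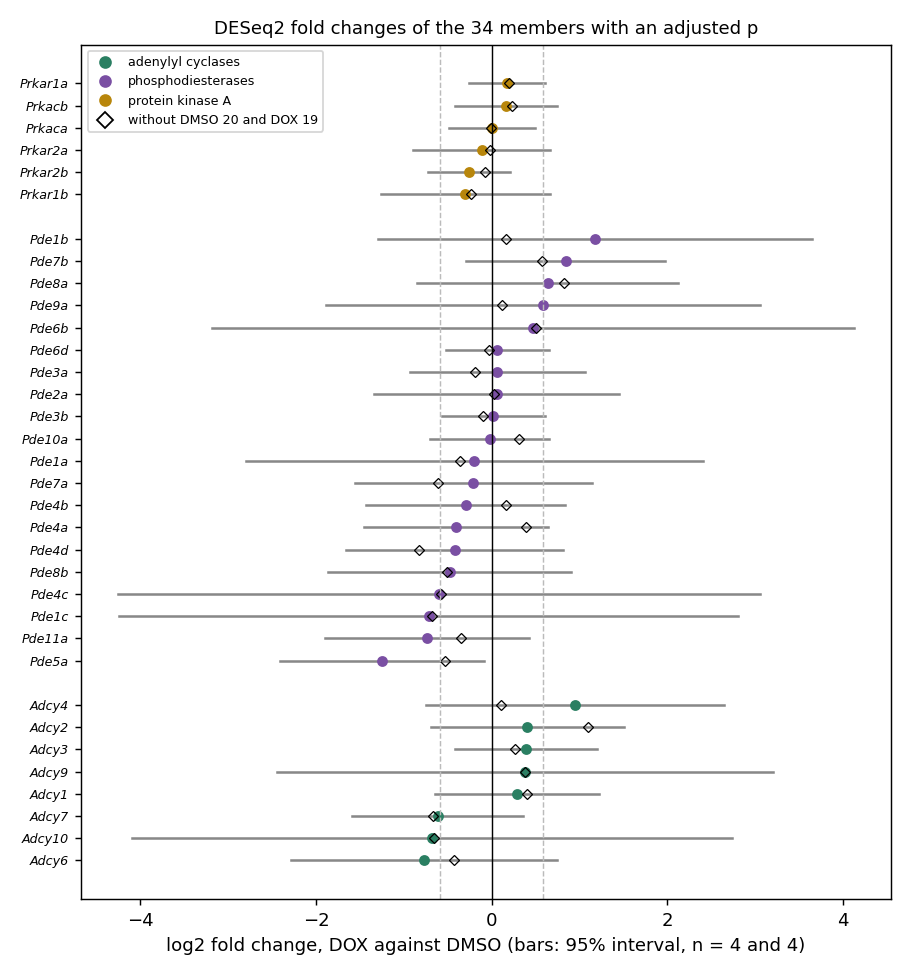
Log2 fold changes of DOX against DMSO (x axis) for the 34 members with an adjusted p, grouped by class. Filled points are DESeq2 estimates, bars their 95% intervals, dashed lines a 1.5-fold change and open diamonds the estimate without DMSO 20 and DOX 19; every interval but that of Pde5a crosses 0.

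The kinase subunits together were the most strongly expressed layer, mainly through Prkar1a. Prkar1a also had the smallest standard error, but those of Prkar1b (0.49) and Prkar2a (0.40) were larger than that of Pde3b (0.30). Levels between genes are given in TPM, which scales counts by transcript length and by library. Reads shared by several isoforms appeared once for each of them, so TPM was taken from the transcript of each gene with the highest mean count, and summed TPM is named as such. Prkar1a, the regulatory subunit RI-alpha, was the highest of all 38 members at 359 ± 56.4 TPM (SD, n = 8 libraries) and made up 84.4 to 91.8% of the TPM of the 4 regulatory subunits in every library. The other 3 regulatory subunits lay close together, with Prkar1b at 16.8 ± 6.78, Prkar2a at 14.9 ± 5.02 and Prkar2b at 14.7 ± 3.73 TPM, and they did not differ beyond their spread. On summed TPM Prkar1b, with 2 transcripts, stood at 33.6 ± 13.5. Of the catalytic subunits, Prkacb stood at 59.2 ± 13.1 and Prkaca at 50.9 ± 8.65 TPM, Prkacb being the higher in 6 of 8 libraries. On summed TPM the gap was wider, 239 ± 52.9 against 102 ± 17.4, because Prkacb has 4 transcripts in the files and Prkaca 2.

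Prkar1a (mm10, chr11:109649023-109669663) had 52953, 33394, 56337 and 42553 normalised counts in DMSO and 53810, 51724, 46127 and 57065 in DOX. Only DMSO 5 was clearly low, and the groups overlapped (log2 fold change 0.17 ± 0.22 SE, 95% interval -0.26 to 0.60; 0.046 without DMSO 5). Prkacb had 46371, 28134, 36009 and 49069 normalised counts in DMSO and 56399, 29998, 51431 and 41458 in DOX. Each group held 1 library well below the others, DMSO 5 and DOX 12, with a fold change of 0.17 on the log2 scale (95% interval -0.41 to 0.75), or 0.035 without DMSO 5. Prkaca had 8335, 7122, 13882 and 8985 normalised counts in DMSO against 9879, 9710, 9326 and 9438 in DOX. The 4 DOX libraries lay within a narrow band inside the DMSO range, and the log2 fold change was 0.00 (95% interval -0.49 to 0.49), which is within a 1.5-fold change either way. The remaining regulatory subunits gave log2 fold changes of -0.30 (Prkar1b), -0.11 (Prkar2a) and -0.26 (Prkar2b), with intervals of -1.27 to 0.67, -0.89 to 0.67 and -0.73 to 0.21. Without DOX 12, Prkar2b gave -0.44 (DESeq2 unadjusted p = 0.0302, adjusted p = 0.824). Without DMSO 15, Prkar1b gave 0.12 and Prkar2a 0.29. For Prkar1b, Prkar2a and Prkar2b, DMSO values ran from 1312 to 7145, 1485 to 4491 and 1840 to 2466 normalised counts. DOX values ran from 2534 to 4175, 1877 to 2806 and 1388 to 2472.

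**Figure D2:**
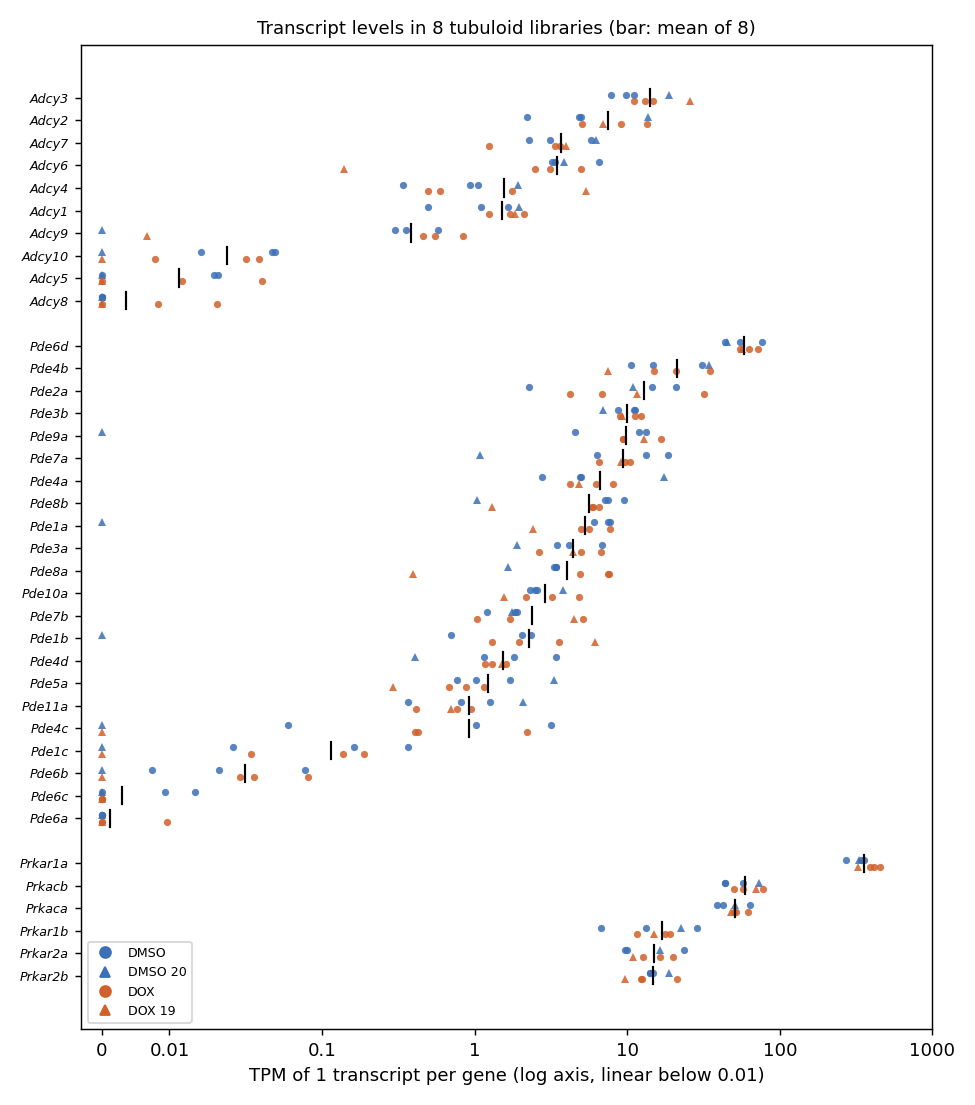
TPM of 1 transcript per gene (x axis, log scale, linear below 0.01) for all 38 members in the 8 libraries, DMSO in blue and DOX in orange, with triangles for DMSO 20 and DOX 19 and a bar at the mean. Prkar1a lies near 359 TPM and most cyclases under 10, and the points at or near 0 in otherwise expressed genes are mostly triangles.

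Among the 10 adenylyl cyclases, Adcy3 led. It made up 42.9% ± 7.71 of the cyclase TPM (SD, n = 8) and was the highest cyclase in 7 of 8 libraries, followed by Adcy2 (22.5% ± 9.49, highest in DOX 21), Adcy6 (12.2% ± 7.90) and Adcy7 (11.9% ± 5.05). In TPM these were 14.1 ± 5.86 for Adcy3, 7.53 ± 4.23 for Adcy2, 3.70 ± 1.67 for Adcy7 and 3.46 ± 1.86 for Adcy6. Adcy7 and Adcy6 did not differ beyond their spread, and on summed TPM Adcy7, which has 4 transcripts, ranked above Adcy2. Adcy4 (1.56 ± 1.65 TPM), Adcy1 (1.51 ± 0.538) and Adcy9 (0.386 ± 0.286) were low, Adcy4 averaging 1.02 TPM without DOX 19. Adcy5, Adcy8 and Adcy10, the soluble bicarbonate-sensitive cyclase, averaged under 0.03 TPM. The summed TPM over the 10 genes, 1 transcript each, was 29.6 ± 11.6 in DMSO (20.2 to 46.3) and 34.9 ± 7.96 in DOX (25.3 to 44.3), so the ranges overlapped. DMSO 20 and DOX 19 were the highest of their groups.

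A limit applies to the value of Adcy3. Of its exon bases, 1046 (22.1%), within chr12:4212079-4213525, lie opposite an exon of Cenpo, which encodes a centromere protein, and the library kit does not keep the strand, so reads there cannot be assigned to either gene. Cenpo stood at 7.80 ± 1.78 TPM (SD, n = 8) and was highest in DOX 19, at 11.4. Adcy3 had 6426, 4019, 7249 and 10123 normalised counts in DMSO and 6422, 7098, 15377 and 7502 in DOX. It was highest in DOX 19 as well, while the other 3 DOX libraries lay inside the DMSO range, with a log2 fold change of 0.39 ± 0.41 SE (0.62 without DMSO 20, 0.019 without DOX 19 and 0.26 without both).

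Adcy6, a cyclase inhibited by calcium, had the largest fold change among the 4 most highly expressed cyclases with all libraries, but not without DMSO 20 and DOX 19. It had 911, 1462, 962 and 901 normalised counts in DMSO and 789, 1032, 36.1 and 624 in DOX. Of the DOX libraries, 3 lay below all DMSO libraries and DOX 12 among them, and DOX 19 was far below the rest. The log2 fold change was -0.77 (95% interval -2.28 to 0.74, DESeq2 unadjusted p = 0.317), and -0.43 without DMSO 20 and DOX 19 (unadjusted p = 0.196, adjusted p = 0.900). It was -1.26 with low gene detection as a covariate (unadjusted p = 0.0711) and -1.17 with limma-voom. Adcy5, the other calcium-inhibited cyclase, had between 0 and 7.11 normalised counts and no fold change is given.

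Adcy2, a cyclase stimulated by G protein beta-gamma subunits, had 435, 773, 959 and 2241 normalised counts in DMSO and 892, 1321, 1249 and 2379 in DOX. DMSO 20 was the second highest of the 8 libraries and lay among the DOX values. With all libraries the log2 fold change was 0.41 (± 0.56 SE). Without DMSO 20 and DOX 19 it was 1.10 (95% interval 0.14 to 2.06, DESeq2 unadjusted p = 0.0246, adjusted p = 0.589), and the 3 remaining libraries of each group still overlapped. Adcy7 had 3594, 2021, 6747 and 5880 normalised counts in DMSO and 3435, 3038, 4167 and 1267 in DOX. The 2 highest values were DMSO and the lowest was DOX 21, with a log2 fold change of -0.62 (95% interval -1.59 to 0.36), or -0.36 without either DOX 21 or DMSO 15 alone. By direction, the 8 cyclases with an adjusted p split into 5 above 0 (Adcy1, Adcy2, Adcy3, Adcy4 and Adcy9) and 3 below 0 (Adcy6, Adcy7 and Adcy10).

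**Figure D3:**
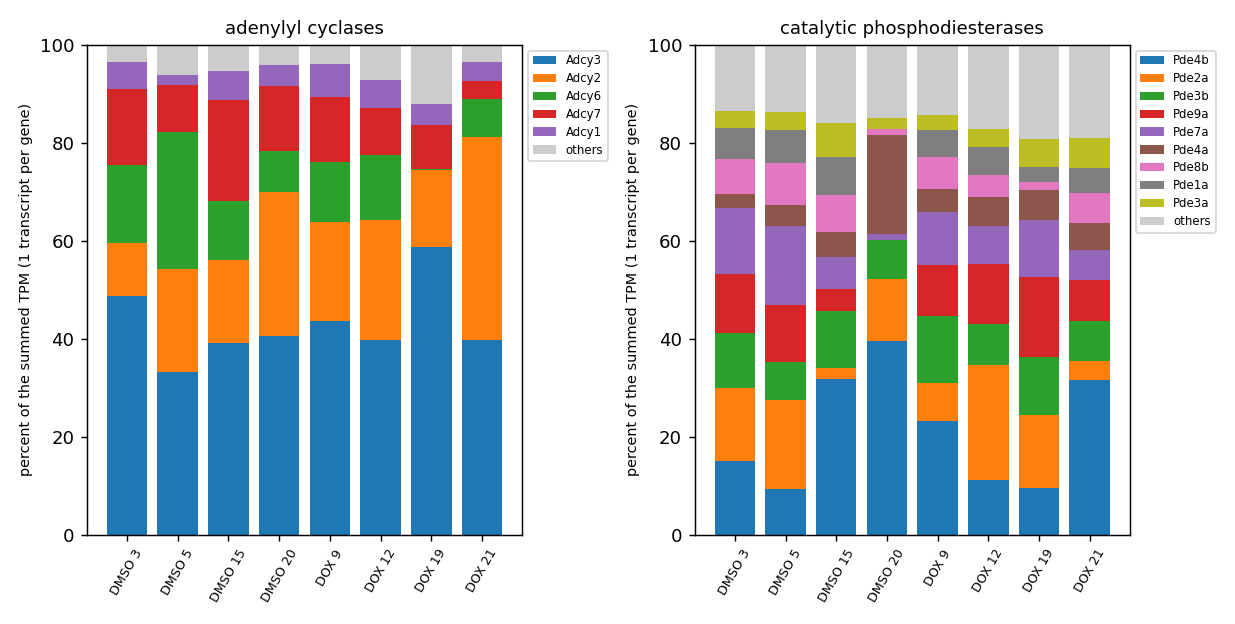
Share of each gene in the summed TPM (y axis, percent, 1 transcript per gene) of the adenylyl cyclases (left) and the catalytic phosphodiesterases (right) in each library. Adcy3 takes the largest cyclase share in every library but DOX 21, while the leading phosphodiesterase changes from library to library, with Pde4b between 9.27 and 39.5%.

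The phosphodiesterases were spread over many genes. The 21 catalytic members summed to 99.2 ± 11.2 TPM in DMSO and 103 ± 25.1 in DOX (1 transcript per gene, SD, n = 4 each), and the ranges, 86.6 to 114 and 78.4 to 136, overlapped. Pde4b, an enzyme specific for cyclic AMP, led with 21.4% ± 11.8 of this sum and was highest in 5 of 8 libraries. Pde2a, which hydrolyses both cyclic nucleotides and is stimulated by cyclic GMP, followed with 12.2% ± 7.27 (highest in 2), then Pde3b with 10.1% ± 2.28, Pde9a with 9.53% ± 5.11 (highest in DOX 19) and Pde7a with 9.18% ± 4.75. On summed TPM the order was Pde4b (31.0%), Pde2a (22.0%), Pde1a (10.8%), Pde9a (7.10%) and Pde7a (6.82%), with Pde3b, which has 1 transcript, at 3.72%. The 8 genes specific for cyclic AMP together gave 53.7 ± 6.33 TPM in DMSO and 49.5 ± 16.1 in DOX. Of these 8, 6 had log2 fold changes below 0 and 2 above, with a median of -0.35, and none was called. Pde6d, which shares the name but is a prenyl-binding chaperone rather than an enzyme, stood at 58.2 ± 11.7 TPM, above every catalytic phosphodiesterase on this scale but below Pde4b (83.5) and Pde2a (64.0) on summed TPM, with a log2 fold change of 0.07 (95% interval -0.51 to 0.65).

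Pde4b (chr4:102087332-102607275) had 11127, 6129, 22545 and 20734 normalised counts in DMSO and 14093, 8171, 4909 and 22109 in DOX. Each group held high and low libraries across more than a 3-fold range, and the log2 fold change was -0.30 (95% interval -1.43 to 0.83), or -0.02 without DOX 19. Pde2a had 14018, 15823, 2207 and 8748 normalised counts in DMSO against 5857, 22767, 10182 and 3604 in DOX. It ran across more than a 10-fold range within the 8 libraries. The log2 fold change was 0.06 (95% interval -1.34 to 1.45), but -0.64 without DOX 12 and 0.35 without DMSO 5. Pde3b, inhibited by cyclic GMP, had the smallest standard error of the catalytic phosphodiesterases, with 1442 to 2825 normalised counts in DMSO and 1974 to 2711 in DOX (0.02 ± 0.30 SE on the log2 scale). Pde4a (-0.41) and Pde7a (-0.21) each had 1 DMSO library apart, Pde4a at 5642 and Pde7a at 520 in DMSO 20, against 1084 to 2290 and 3328 to 8408 in the other 7. Without DMSO 20 and DOX 19 their log2 fold changes were 0.39 and -0.61.

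The counts by isoform set a limit on Pde4b and Pde1a. In 12 of the 15 members with several transcripts and a total of at least 1000, the transcript with the fewest counts held at least 90% of those of the one with the most. Pde1a (69.1%) and Pde4a (79.6%) differed more, and in Pde4b 1 of 5 transcripts was near 0, with 54 counts in all against 29715 for the most counted. In Pde1a the transcript used for TPM averaged 5.25 TPM, and its other transcripts 5.50 to 10.1. The rank of Pde1a among the phosphodiesterases depends on this choice.

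In the family stimulated by calcium and calmodulin, Pde1a was the highest in 6 of 8 libraries. It had 4189, 4388, 5537 and 0 normalised counts in DMSO and 3237, 4060, 1457 and 3551 in DOX. Outside DMSO 20 and DOX 19, every DOX library lay below every DMSO library, but the difference was small (log2 fold change -0.37, 95% interval -0.84 to 0.10, DESeq2 adjusted p = 0.870), and with all 8 libraries it was -0.20 with an interval of -2.80 to 2.40. Pde1b had 605, 165, 691 and 0 normalised counts in DMSO and 513, 785, 1671 and 340 in DOX. The 0 was in DMSO 20 and the highest value in DOX 19, and the log2 fold change was 1.18 with all libraries, 0.17 without both and 2.86 with limma-voom. Pde1c had 482, 815, 82.3 and 0 normalised counts in DMSO and 443, 314, 0 and 81.9 in DOX. It varied within each group by far more than between them (log2 fold change -0.72, 95% interval -4.24 to 2.81). In TPM the 3 genes summed to 8.23, 8.77, 9.84 and 0 in DMSO and 7.14, 11.5, 8.57 and 6.97 in DOX, with 1 transcript per gene.

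Pde5a (chr3:122729158-122859374), which hydrolyses cyclic GMP, was the member with an unadjusted p under 0.05. It had 243, 255, 547 and 867 normalised counts in DMSO and 190, 205, 83.5 and 323 in DOX. Of the DOX libraries, 3 lay below all DMSO libraries and DOX 21 among them, while the highest value was DMSO 20 and the lowest DOX 19. The log2 fold change was -1.25 ± 0.59 SE (95% interval -2.42 to -0.09, DESeq2 unadjusted p = 0.0352, adjusted p = 0.874; edgeR unadjusted p = 0.0923). Without DMSO 20 and DOX 19 it was -0.53 (unadjusted p = 0.275). Its TPM of 1.23 ± 0.933 was well under that of Pde9a (9.77 ± 5.32), the other expressed cyclic GMP enzyme, which had 2311, 2038, 893 and 0 normalised counts in DMSO and 1625, 2386, 2261 and 1600 in DOX. Apart from DMSO 15 and DMSO 20, the Pde9a values lay close together, and the log2 fold change was 0.59, 0.12 without DMSO 20 and DOX 19, and 2.58 with limma-voom. Pde6a, Pde6b and Pde6c, the photoreceptor enzymes, had at most 9.45 normalised counts in any library.

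**Figure D4:**
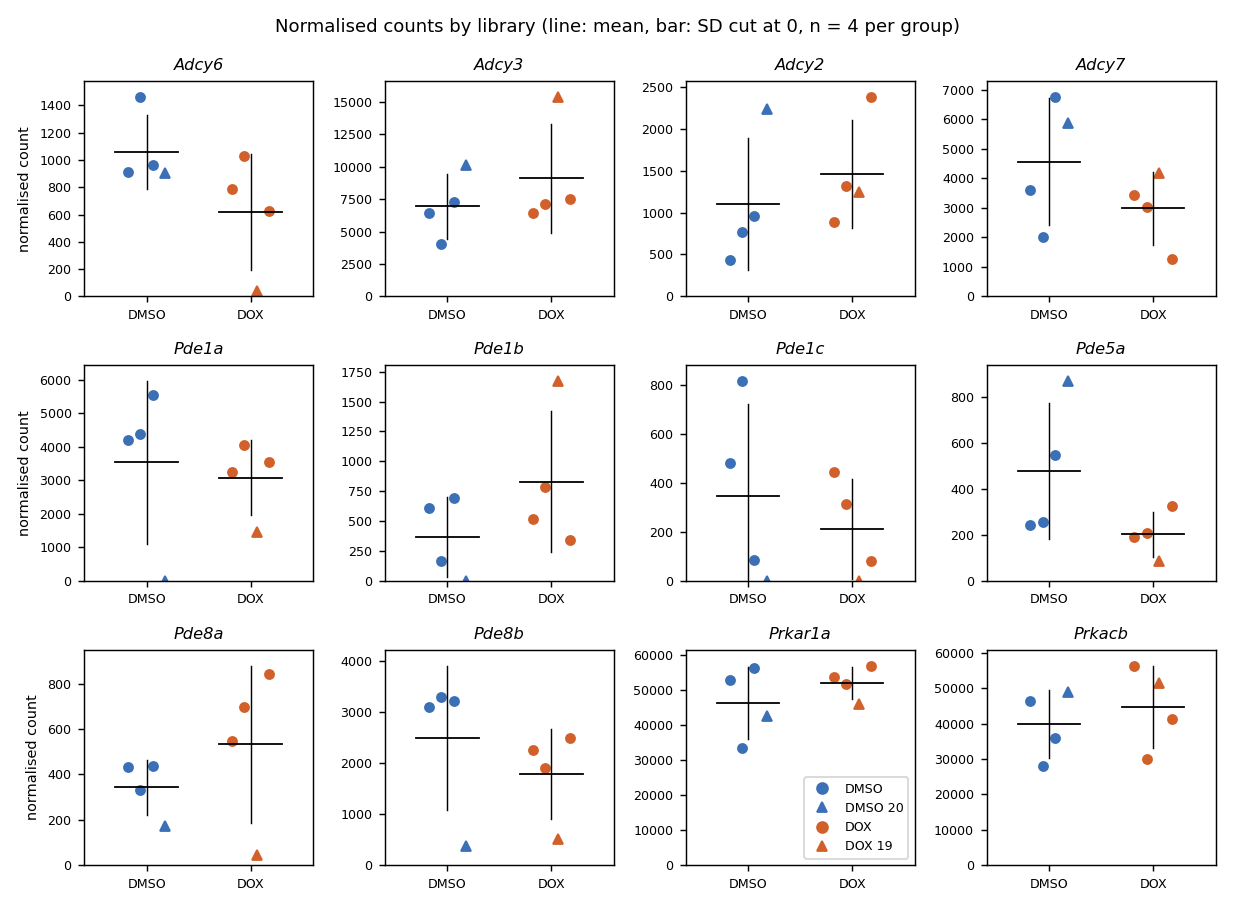
Normalised counts (y axis) of 12 members in the DMSO (blue) and DOX (orange) libraries, with the mean as a line, the SD as a bar and triangles for DMSO 20 and DOX 19. The triangles are at or near the lowest value of their group for Pde1a, Pde1c, Pde8a and Pde8b and at the highest for Adcy3.

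Several members depended on DMSO 20 and DOX 19, and 21 of the 35 members averaging at least 2 counts had their lowest value, or tied for it, in one of them. With 3 libraries against 3, still none of 35 members with an adjusted p was called (smallest adjusted p 0.336), beside 0.296% of all genes tested. At an unadjusted p under 0.05 there were 3 members, Adcy2, Pde8a and Pde8b, which is 7.89% of the members beside 6.11% of all genes. Groups did not overlap for 3 of 36 members, Pde1a, Pde8a and Pde8b, or 8.33% beside 10.1% of all genes that averaged at least 2 counts. Neither share stood apart from its background.

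The Pde8 genes, which encode high-affinity cyclic AMP enzymes, differed in direction. Pde8a had 430, 331, 435 and 173 normalised counts in DMSO and 548, 695, 45.1 and 843 in DOX. The 3 DOX libraries other than DOX 19 were above every DMSO library, with a log2 fold change of 0.82 (95% interval 0.22 to 1.42, DESeq2 unadjusted p = 0.00725, adjusted p = 0.336) without DMSO 20 and DOX 19. Pde8b had 3102, 3290, 3226 and 371 normalised counts in DMSO and 2265, 1896, 516 and 2484 in DOX. The 3 DMSO libraries other than DMSO 20 were close together and above every DOX library, with a log2 fold change of -0.51 (95% interval -0.94 to -0.09, unadjusted p = 0.0184, adjusted p = 0.527) in the same fit. With all 8 libraries the values were 0.64 (-0.85 to 2.13) for Pde8a and -0.48 (-1.86 to 0.90) for Pde8b. Pde8a gave 0.21 with low gene detection as a covariate and 0.27 with limma-voom, and Pde8b gave -0.29 and -0.33. The difference between both genes was not tested.

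Levels of cell type markers also differed between the libraries. The summed TPM of 6 stroma markers ran from 169 to 2347 in DMSO and 266 to 598 in DOX, and that of 6 mural and smooth muscle markers from 182 to 3057 and 478 to 603, both highest in DMSO 15. The mural sum there came almost entirely from Acta2 (1212 TPM) and Tagln (1708), while Rgs5 was highest in DOX 21, Pdgfrb in DMSO 20 and Notch3 in DOX 19, and of the stroma markers Pdgfra was highest in DOX 12. Epithelial markers (7 genes, Epcam, Cdh1 and Krt8 among them) summed to 442 to 1854 and 551 to 1234, lowest in DMSO 15. Of the 35 members, 10 were highest in DMSO 15: Adcy7, Pde1a, Pde3a, Pde3b, Pde4b, Pde4d, Pde6d, Prkaca, Prkar1b and Prkar2a, while Pde2a and Pde11a were lowest there. No marker of these lists was called, and 1 of 6 stroma markers and 2 of 6 mural markers had an unadjusted p under 0.05, all lower in DOX. In such bulk samples fewer cells of a type and less RNA per cell cannot be told apart, and the part of cell makeup in the members' values was not tested.

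Markers of collecting duct principal cells (6 genes) summed to 10.5 to 235 TPM in DMSO and 26.1 to 58.8 in DOX, highest in DMSO 5. Aqp2, the water channel that defines the mature cell, was at 0 in all libraries but DOX 9, where it had 0.0287 TPM. Avpr2, the vasopressin V2 receptor, had 1116, 2503, 0 and 0 normalised counts in DMSO and 220, 601, 30.5 and 104 in DOX, so it was high in DMSO 5 and DMSO 3 and absent from the counts of DMSO 15 and DMSO 20. Adcy6, Pde1c, Pde4c, Pde7a and Pde8b were each highest in DMSO 5, Pde8b by little (3290 against 3226 in DMSO 15). A link of these members with principal cells was not tested. The shares of all genes highest in DMSO 5 or in DMSO 15 are not given here. Of the remaining lists, macrophage markers summed to at most 11.02 TPM, proximal tubule markers to at most 23.7, loop and distal tubule markers to at most 6.42, podocyte markers to 17.5 to 189 and endothelial markers to 10.97 to 79.6, the last almost entirely from Emcn, with Pecam1, Cdh5, Kdr and Tie1 each under 0.4.

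Around these enzymes, 98 other genes of the pathway were read from lists of receptors, G proteins, anchoring proteins, effectors, cyclic AMP-responsive transcription factors and their targets. Of 91 with an adjusted p, none was called in either direction, and 46 had log2 fold changes above 0 and 45 below. Gnas, the stimulatory G protein alpha subunit, was the most highly expressed at 822 ± 160 TPM (SD, n = 8), with 260581 to 515477 normalised counts in DMSO and 438405 to 474282 in DOX. Other lists were led by Junb (163 ± 42.4 TPM), Pkig, an inhibitor of protein kinase A (78.2 ± 17.2), Abcc4, a cyclic AMP exporter (33.8 ± 15.2), Crem (29.0 ± 6.58), Prkg2, a cyclic GMP kinase (21.6 ± 12.1), Pth1r, the parathyroid hormone receptor (18.6 ± 5.80) and Pde4dip, an anchor for phosphodiesterases (14.7 ± 3.95). These leaders have the highest summed TPM of their list, and the values are TPM of 1 transcript. By TPM of 1 transcript, Ezr led in place of Pkig, Creb3 in place of Crem and Pde12 in place of Pde4dip.

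At an unadjusted p under 0.05 there were 4 of the 91 genes, and 4.67% of all genes. Pck1, a gluconeogenic enzyme induced through the cyclic AMP response element, had 147, 69.5, 26.1 and 24.3 normalised counts in DMSO and 0.849, 2.13, 0 and 13.7 in DOX. All DOX libraries were below all DMSO libraries, at counts that were low throughout (0.315 ± 0.426 TPM), and the fold change was -4.02 on the log2 scale (SE 1.29; DESeq2 adjusted p = 0.280, edgeR unadjusted p = 0.0239). It ranged from -5.96 (without DOX 21) to -3.27 (without DMSO 3) on leaving out each library, and was called in 2 of the other fits: with low gene detection as a covariate (adjusted p = 0.0459) and without DOX 21 (adjusted p = 0.0084). Fos, an immediate early gene, had 923, 661, 2358 and 1621 normalised counts in DMSO and 660, 611, 936 and 570 in DOX. Of the DOX libraries, 3 lay below every DMSO library and DOX 19 within the DMSO range (log2 fold change -1.002, adjusted p = 0.830), or -0.62 without DMSO 15. Creb1, the transcription factor phosphorylated by protein kinase A, gave -0.71 (adjusted p = 0.862) with DMSO 20 highest at 18607, and -0.43 without DMSO 20 or -0.29 without DMSO 20 and DOX 19 (unadjusted p = 0.286). Akap10, an anchoring protein, gave 0.43 (adjusted p = 0.934), from 1123 to 1988 normalised counts in DMSO and 2075 to 2204 in DOX, without overlap.

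The cyclic AMP response element, the sequence bound by Creb1, was looked up in the promoters of the members because it marks where the pathway could feed back on its own genes. The full palindrome TGACGTCA was searched in windows around the annotated starts, lying mostly upstream (RefSeq, GRCm38.p6, both strands). It lay in the windows of 1 of 30 members with one, Prkar1a, or 3.33%, beside 2.03% of all 27025 genes. The shorter element TGACGT, which the palindrome contains, was present in 4 of 30 (Adcy9, Pde4a, Pde4b and Prkar1a), or 13.3%, beside 8.37% of all genes. The 30 members had 67 windows and the 27025 genes 32851, so members had more windows each, and 7.51% of all windows held the shorter element. A match describes letters in a window and is no evidence of binding. The windows of the most abundant regulatory subunit and of a pair of Pde4 genes are shown, 5′ to 3′ on the plus strand, which is also the strand of these genes, with the motif in capitals:
Prkar1a, chr11:109650889-109650918: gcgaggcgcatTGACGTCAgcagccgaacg
Pde4b, chr4:102421508-102421537: tgatttggctgcACGTCAattttctcatct
Pde4a, chr9:21184023-21184083: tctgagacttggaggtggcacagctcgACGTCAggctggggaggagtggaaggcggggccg

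In Prkar1a the palindrome begins 49 bases before 1 annotated start and at base 39 counted from another, earlier one, and in Pde4b and Pde4a the shorter element, read on the opposite strand, begins 35 and 51 bases before the start of the window's transcript. The Pde4b stretch overlaps an annotated exon. Of these 3 genes none was called, and their log2 fold changes between DOX and DMSO were 0.17, -0.30 and -0.41. Windows of Adcy6, Adcy8, Pde3a, Pde3b, Pde6a, Pde6c, Pde7a and Pde9a were not analysed here.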

How the data were processed

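Tubuloid RNA was sequenced by the authors from poly-A selected SMART-Seq v4 libraries, which do not keep the strand. The submitters' processing notes name STAR, featureCounts and DESeq2, and the builds mm10 and GRCm38; versions and settings, including the treatment of reads that fit several genes, are not given in the sources used here. The authors' files list, for each RefSeq transcript, a raw read count. They also hold FPKM, in which the authors scaled counts to length and library total, and TPM, which they brought to an equal sum in each library. FPKM served only for looking at the files.

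Counts were summed by symbol and fitted over all genes with the Wald test of DESeq2 1.42.0 (R 4.3.3), without covariates. Independent filtering (alpha 0.1), outlier filtering by Cook's distance and Benjamini-Hochberg adjustment were applied. The study's methods name DESeq2, this adjustment and an alpha of 0.1, but not the other choices. edgeR 4.0.16 and limma 3.58.1 (voom) are given beside DESeq2. The tests were tested on simulated data. Groups came from the sample titles. TPM, from the transcript with the highest mean count, described levels only. Exons were those of GENCODE vM21 and gene positions those of RefSeq.

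Members and lists were chosen with earlier results of these data known. The members named are the 6 kinase subunits, and the 4 cyclases and 8 phosphodiesterases with the highest summed TPM. Also named are any with an unadjusted p under 0.05 or with groups apart, the calcium-inhibited cyclases and the calcium-calmodulin phosphodiesterases. Of the pathway, the gene with the highest summed TPM of each list and those with an unadjusted p under 0.05 are named. Adcy1, Adcy4, Adcy8, Adcy9, Adcy10, Pde3a, Pde3b, Pde4c, Pde4d, Pde8a, Pde10a, Pde11a, Avpr2, Ezr, Creb3, Pde12 and the Pde6 genes were named after their values were seen.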

Additional observations from a re-analysis of the deposited data

Results flagged for a closer look

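Within each group of 4 libraries, the gap of the highest or lowest value to its neighbour, as a share of the group's range, exceeded Dixon's 95% critical value in 11 of 72 groups tested. Chance flags about 1 in 20 groups, or 3.6 here. Of the 11, 9 were in DMSO 20 or DOX 19, and members share these libraries, so the groups are not independent. Values are log2(normalised count + 1) unless stated.

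Among the cyclases, Adcy6 was high in DMSO 5, at 10.51 against 9.82 to 9.91, and low in DOX 19, at 5.21 against 9.29 to 10.01. Adcy9 was at 0 in DMSO 20, against 7.68 to 8.73, and at 2.46 in DOX 19, against 8.22 to 8.82. Among the phosphodiesterases, DMSO 20 was lowest for Pde1a (0 against 12.03 to 12.44), Pde8b (8.54 against 11.60 to 11.68) and Pde9a (0 against 9.80 to 11.18). Pde8a was low in DOX 19, at 5.53 against 9.10 to 9.72, and Pde11a was low in DOX 9, at 5.65 against 6.44 to 6.57. DOX 19 had a count in 13599 genes, against 17342 to 17903 in the other DOX libraries. DMSO 20 had a count in 26 members, against 35 to 36 in the other DMSO libraries.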

How the results depend on the processing

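No member was called in any alternative run for them, 0.1 as the threshold on the adjusted p included. Fold changes below are log2, DOX against DMSO. Of 352 alternative values for 22 members, 324 kept their direction and 28 changed sign, in 10 members, and the smallest adjusted p was 0.336; the cause was not tested. Signs changed with edgeR for Prkaca (-0.0065), with limma-voom for Pde1a (1.78), Pde7a (0.30) and Prkar2a (0.024), without DMSO 20 and DOX 19 for Pde4a (0.39), Pde4b (0.17), Pde6d (-0.030) and Prkaca (-0.0053), and with low gene detection as a covariate for Pde1a (0.62) and Pde7a (0.14). Leaving out each library in turn gave -0.62 (without DMSO 20) to 0.11 for Pde1a, -1.39 to 0.16 for Pde1c, -0.64 to 0.35 for Pde2a, -0.66 to 0.33 (without DMSO 20) for Pde4a, -0.057 to 0.35 for Pde6d, -0.59 to 0.15 for Pde7a, -0.11 to 0.24 for Prkaca, -0.59 to 0.12 for Prkar1b and -0.30 to 0.29 for Prkar2a. Without a change of sign, Adcy2 ranged from 0.070 (without DOX 21) to 1.01 (without DMSO 20), Adcy3 from 0.019 (without DOX 19) to 0.62 (without DMSO 20), Adcy6 from -1.14 to -0.37 (without DOX 19), Adcy7 from -0.86 to -0.36 (without DOX 21), Pde1b from 0.58 (without DOX 19) to 1.69 (without DMSO 15), Prkar1a from 0.046 (without DMSO 5) to 0.28, Prkacb from 0.035 (without DMSO 5) to 0.32, Prkar2b from -0.44 (without DOX 12) to -0.14, Fos from -1.23 (without DMSO 5) to -0.62 (without DMSO 15), Pde4b from -0.74 (without DOX 21) to -0.02 (without DOX 19), Pde5a from -1.58 to -0.80 (without DMSO 20), Pde8a from 0.33 (without DOX 21) to 1.03 (without DOX 19), Pde8b from -0.84 (without DMSO 20) to -0.17 (without DOX 19), Pde9a from 0.17 (without DMSO 20) to 1.01 and Creb1 from -0.87 to -0.43 (without DMSO 20). Genes called over the whole table numbered 25, and 0 with edgeR, 0 with limma-voom, 48 with the Cook's filter off, 51 without DMSO 20 and DOX 19, 41 with low gene detection as a covariate, 40 with the threshold at 0.1, and 14 (without DMSO 3) to 75 (without DMSO 15) on leaving out each library; without DMSO 20 they numbered 48 and without DOX 21 38. Of the other pathway genes 1, Pck1, was called with low gene detection as a covariate, and 0 to 1 on leaving out each library (1 without DOX 21). Pkd2 gave -0.41 to -0.20 on leaving out each library. No paired analysis was possible because the library numbers in the titles are not shared between the groups. The count of members whose groups do not overlap without DMSO 20 and DOX 19 was added after the data were seen. Depth limits the members near 0 counts, and counting error is covered only in part where reads were counted for several isoforms.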
